A study of Mus musculus with 2 samples.

Results

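The 6 genes described here encode the receptors and ligands of phagocytosis checkpoints. They are Sirpa (ENSMUSG00000037902), Pirb (ENSMUSG00000058818), Lilrb4a (ENSMUSG00000112148) and Siglecg (ENSMUSG00000030468), which are receptors, and Cd47 (ENSMUSG00000055447) and Cd24a (ENSMUSG00000047139), which are ligands. They were chosen by symbol, as 6 of the 56941 features counted. CD45+ cells were selected from mouse liver metastases and sequenced cell by cell in droplets, giving the libraries Ctrl and KD. The host mice were C57BL/6, aged 6 to 8 weeks, and received tumor cells by injection into the spleen, with collection 2 weeks later. The tumor cells were MC38-LM3b, a derivative of the murine colorectal cancer line MC38 selected for its capacity to metastasize to the liver. In Ctrl they carried a scrambled short hairpin RNA (shScramble), and in KD a hairpin against SLAMF3 (shSLAMF3), the receptor encoded by Ly9. The hairpin was in the injected cells and not in the host cells that make up most of both libraries, so the knockdown could not be checked here. Ly9 was at 20.99 CPM (UMIs, the counted RNA molecules, per 1000000 in the library or class) over all Ctrl cells and 18.8 over all KD cells, and the tumor or fibroblast cells held 12 and 7 Ly9 UMIs. Each group had 1 library that pooled 3 mice, so no test could be made and no p-value is given. Values in parentheses after a level, share or ratio are its 95% limits and reflect counting error alone.

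A phagocyte decides whether to engulf a target by weighing activating signals, such as antibody bound by Fc receptors, against inhibitory ones. The best known inhibitory pair is SIRPα on macrophages and CD47 on nearly all cells, in which CD47 acts as a "don't eat me" signal. Pirb encodes PIR-B, a mouse receptor for MHC class I molecules and a relative of the human LILRB receptors. Lilrb4a encodes an inhibitory receptor of the same family, and Siglecg a sialic acid-binding receptor of B cells and some dendritic cells that recognizes the heavily glycosylated, lipid-anchored protein CD24. When such a receptor is engaged, tyrosines in its cytoplasmic tail are phosphorylated by Src family kinases and bind the phosphatases encoded by Ptpn6 and Ptpn11.

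These tyrosines lie in immunoreceptor tyrosine-based inhibitory motifs. The coding sequences of matches to a motif pattern are shown. In the last 120 residues, these matches set the 4 receptors apart from the ligands and from the paralogs counted beside them. They were found by searching the last 120 residues of each protein for a 6-residue pattern. It had isoleucine, leucine, valine or serine in the first place, tyrosine in the third and leucine or valine in the last. Whether each match acts as an inhibitory motif was not examined. Each sequence is 18 bases long, from transcripts of GENCODE M21 (GRCm38, an older build than that of the counts), with the tyrosine codon in capitals:
Sirpa, residues 434 to 439 of 509: atcacaTACgcagacctg
Sirpa, residues 475 to 480: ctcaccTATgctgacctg
Sirpa, residues 499 to 504: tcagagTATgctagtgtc
Pirb, residues 792 to 797 of 841: gtgaccTATgcccagctg
Pirb, residues 822 to 827: agtgtaTATgctactctg
Lilrb4a, residues 298 to 303 of 335: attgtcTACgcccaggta
Lilrb4a, residues 320 to 325: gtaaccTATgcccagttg
Siglecg, residues 588 to 593 of 688: ctggacTACatcaatgtg
Siglecg, residues 657 to 662: ctccacTATgctgctctc
Siglecg, residues 680 to 685: tctgatTACacagaggtc

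The same search found 0 matches in Cd47 (321 residues) and in Cd24a (76 residues). It also found 0 in this window of Sirpb1a, Sirpb1b, Sirpb1c, Pira2, Pira12, Pira13, Lilra6 and Lilrb4b. Over whole proteins, Pira13 and Lilrb4b had 1 match each, and Pirb had 4, Lilrb4a 3 and Siglecg 4. The paralogs matter for the counts. The longest run of identical bases between whole transcripts, untranslated parts included, was 523 for Pirb and Pira12 and 477 for Pirb and Pira2. It was 241 for Lilrb4a and Lilrb4b, whose coding sequences were 86.5% identical. Between Sirpa and Sirpb1a it was 32. Where in the transcripts these runs lie was not examined. Reads of Pirb and Lilrb4a that fell in such runs cannot be assigned to 1 gene, so both levels are uncertain in this respect.

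There were 10416 barcodes with 67207234 UMIs (unique molecular identifiers) in Ctrl, and 10943 with 64444715 in KD. After filtering, 9814 and 10185 cells remained, with medians of 5412 and 4989 UMIs, and 24 cell barcodes occurred in both libraries. Clusters were named from marker genes, so each name stands for cells like that type. Macrophages (monocytes included) numbered 4128 in Ctrl and 3084 in KD, granulocytes 779 and 2221, T cells 3216 and 1621, B cells 276 and 894, and conventional dendritic cells (cDCs) 379 and 580. Kupffer cells, the resident macrophages of the liver, numbered 48 and 83, plasmacytoid dendritic cells (pDCs) 82 and 71, NK cells 438 and 733, endothelial cells 149 and 645, and cells with keratin and collagen genes (tumor or fibroblast cells) 161 and 96. Some classes went against the selection or shared markers with others. Endothelial and tumor or fibroblast cells had 37.5 to 121 CPM of Ptprc, which encodes CD45, against 476 to 1996 CPM in the immune classes. Cdh5, a marker used to name endothelial cells (810 and 713 CPM), was also at 255 CPM in Ctrl and 330 in KD in Kupffer cells. In pDCs it was at 143 and 168. Kupffer cells had 1279 and 1467 CPM of their own marker Clec4f. Granulocyte RNA was more abundant outside granulocytes in KD, where the 11 granulocyte markers summed to 977 CPM in T cells and 2259 in macrophages, against 71.3 and 339 in Ctrl.

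Sirpa was foremost a gene of resident and infiltrating macrophages. Macrophages held 9726 of its 11697 UMIs in Ctrl (83.2%) and 9504 of 13659 in KD (69.6%). Kupffer cells had the highest level in both libraries, 670 CPM in Ctrl (595 to 753) and 609 in KD (549 to 674), above the 369 (361 to 376) and 394 (386 to 402) of macrophages. Granulocytes had 264 and 213 CPM, pDCs 153 and 231, endothelial cells 167 and 169, and cDCs 115 and 154. Granulocytes exceeded endothelial cells and cDCs in both libraries by their intervals. Endothelial cells, by contrast, overlapped pDCs in Ctrl and cDCs in KD. B cells had 34.2 and 40.0 CPM, tumor or fibroblast cells 20.7 and 31.4, T cells 9.27 and 13.7, and NK cells 7.35 and 6.64. With each cell thinned to 1500 UMIs, a Sirpa UMI was found in 40.0% of Ctrl macrophages (38.4% to 41.5%) and 44.1% of KD macrophages (42.3% to 45.9%). The shares in T cells, which served as the background, were 1.05% and 1.53%. Without thinning, the medians per cell were 5590 and 7419 UMIs in macrophages and 6605 and 5588 in T cells.

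Pirb and Lilrb4a were highest in granulocytes. Pirb had 150 CPM in Ctrl granulocytes (133 to 169) and 301 in KD granulocytes (288 to 314). In Ctrl this overlapped the 130 CPM of Kupffer cells, while in KD it exceeded their 156. Macrophages had 121 and 150 CPM of Pirb, cDCs 68.0 and 73.1, pDCs 55.1 and 51.5, and T cells 3.03 and 5.96. Lilrb4a had 317 CPM in Ctrl granulocytes (292 to 344) and 237 in KD (226 to 249), against 62.5 and 64.6 in macrophages. The other named classes were at or below 52.0 CPM of Lilrb4a, with T cells at 10.5 and 19.1. In thinned cells, a Pirb UMI was found in 131 of 655 granulocytes in Ctrl and in 681 of 2039 (33.4%) in KD, and a Lilrb4a UMI in 34.2% and 29.0%. In T cells these shares were 0.593% and 0.827% for Pirb and 2.01% and 3.37% for Lilrb4a.

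Siglecg UMIs were few and lay mainly in B cells and cDCs. B cells, in which its protein restrains antigen receptor signaling, had 68.3 CPM in Ctrl (51.9 to 88.3) and 78.1 in KD (67.9 to 89.3). cDCs came next with 19.0 and 33.9 CPM, and pDCs, with 9 and 6 UMIs, overlapped them in both libraries. B cells held 37.4% of the 155 Siglecg UMIs in Ctrl and 46.6% of the 457 in KD, and cDCs 33.5% and 38.7%. Macrophages had 20 UMIs in 4128 Ctrl cells (0.758 CPM) and 30 in 3084 KD cells (1.24 CPM). In thinned macrophages 8 of 3835 and 9 of 2941 cells had a UMI, or 0.209% and 0.306%. The T cell shares were 0.0659% and 0.127%, within counting error of these, so these macrophage UMIs are not read as expression. Kupffer cells had 0 UMIs in both libraries, which allows up to 7.08 CPM in Ctrl and 4.87 in KD.

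**Figure D1:**
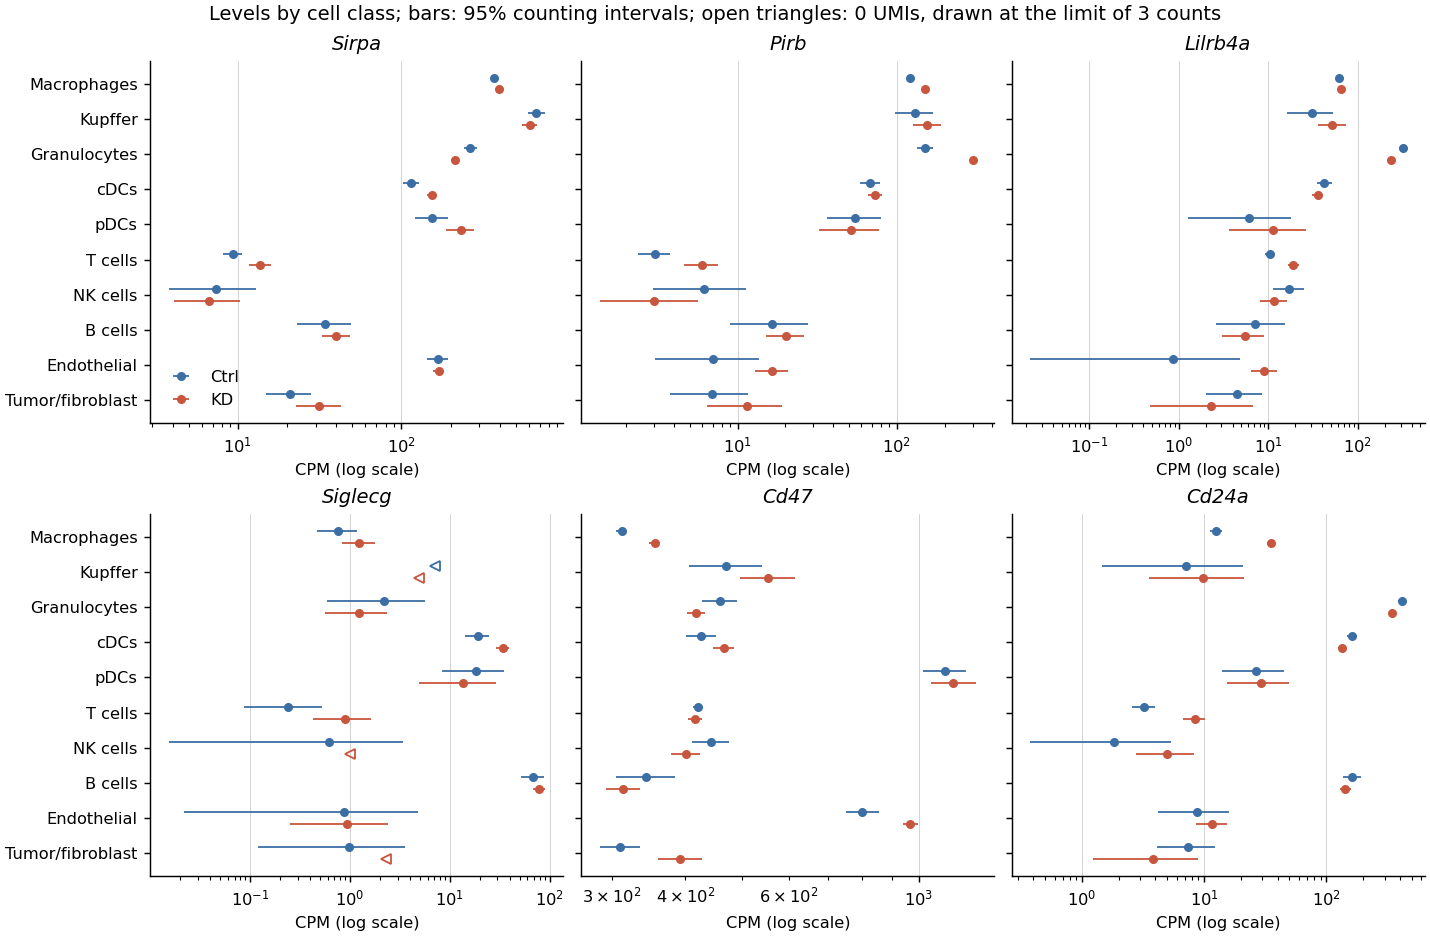
Level of each gene in 10 cell classes of the Ctrl (blue) and KD (red) libraries, in CPM on a log scale; bars are 95% counting intervals and open triangles mark 0 UMIs, drawn at the limit of 3 counts. Sirpa is highest in Kupffer cells (670 and 609 CPM), Siglecg in B cells (68.3 and 78.1) and Cd24a in granulocytes (417 and 348), while Cd47 is between 310 and 1145 CPM in all 10 classes.

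Cd47 was present in every class and was not highest in the tumor cell cluster. pDCs had 1106 CPM in Ctrl (1015 to 1203) and 1145 in KD (1048 to 1249), and endothelial cells 802 (751 to 855) and 968 (938 to 998). Kupffer cells had 470 and 554 CPM, granulocytes 459 and 418, NK cells 442 and 401, cDCs 426 and 465, T cells 421 and 416, and B cells 343 and 314. Macrophages were at 312 and 355 CPM, and tumor or fibroblast cells at 310 (287 to 336) and 393 (359 to 428). These CPM were among the lowest in both libraries, but in KD the latter overlapped granulocytes, T cells and NK cells. CPM are relative to all UMIs, and tumor or fibroblast cells had the most per cell, with medians of 12040 and 13886. Without thinning, a Cd47 UMI was found in 79.5% and 85.4% of them. The shares were 71.8% and 81.5% in macrophages, 83.6% and 82.85% in T cells, and 98.8% and 95.8% in pDCs. The keratin-bearing cluster had 626 and 559 CPM of Krt8, 578 and 666.5 of Krt18, and 711 and 199 of Col1a1. A different mixture of tumor cells and fibroblasts and a different Col1a1 level per cell cannot be told apart here. In thinned cells, a Cd47 UMI was found in 86.3% of pDCs in Ctrl and 76.8% in KD, 69.1% and 73.6% of endothelial cells, 44.7% and 45.2% of T cells and 35.3% and 38.9% of tumor or fibroblast cells.

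Cd24a followed another pattern, with 3 high classes and low levels elsewhere. Granulocytes had 417 CPM in Ctrl (388 to 448) and 348 in KD (334 to 361). B cells had 164 and 144 CPM and cDCs 164 and 135, and these overlapped each other. pDCs had 26.5 and 29.1 CPM, and macrophages 12.6 (11.3 to 14.1) and 35.2 (32.9 to 37.6). Tumor or fibroblast cells had 15 UMIs in Ctrl and 5 in KD, or 7.39 and 3.83 CPM. This was below macrophages by the intervals in KD and overlapped them in Ctrl. T cells had 3.22 and 8.36 CPM.

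Within the dendritic cells, the receptors and Cd24a divided the subsets. cDC2-like cells, which present antigen mainly to CD4+ T cells, had 159 CPM of Sirpa in Ctrl and 202 in KD. cDC1-like cells, which cross-present antigen to CD8+ T cells, had 3 and 5 UMIs, or 6.59 and 5.14 CPM. For Ctrl this gave a log2 ratio of cDC2-like over cDC1-like cells of 4.59 (3.02 to 6.89), and for KD one of 5.29 (4.06 to 6.92). Cd24a went the other way, with 444 and 369 CPM in cDC1-like cells and 48.3 and 52.8 in cDC2-like cells, a log2 ratio of -3.20 (-3.70 to -2.72) and -2.81 (-3.13 to -2.49). Siglecg had 31.8 and 55.8 CPM in cDC2-like cells and 4.39 and 10.3 in cDC1-like cells. Cd47 was at 469 and 490 CPM against 426 and 421, a log2 ratio of 0.14 (-0.11 to 0.39) and 0.22 (0.05 to 0.39). Sirpa and Cd24a proteins are standard surface markers of these subsets, but neither gene was used to form or name the clusters.

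Within the macrophages, Sirpa and Cd47 ran in opposite directions between monocytes and tissue macrophages. Vcan+ monocyte-like cells, the infiltrating precursors, had 246 CPM of Sirpa in Ctrl and 285 in KD, and C1qc+ TAM-like cells, which carry the complement C1q genes of mature tumor-associated macrophages, had 456 and 457. For Ctrl the log2 ratio of the second over the first was 0.89 (0.76 to 1.03), and for KD 0.68 (0.57 to 0.79). For Cd47 the values were 519 and 464 CPM in monocyte-like and 271.5 and 253 in TAM-like cells, a log2 ratio of -0.93 (-1.05 to -0.82) and -0.88 (-0.98 to -0.77). Pirb, Lilrb4a and Cd24a were lower in TAM-like cells as well, with log2 ratios of -0.68 and -0.48 for Pirb, -1.17 and -0.41 for Lilrb4a, and -2.67 and -2.31 for Cd24a. The members and related genes were left out of the genes used for clustering. All other genes of the same cells were used, so these ratios are descriptions.

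**Figure D2:**
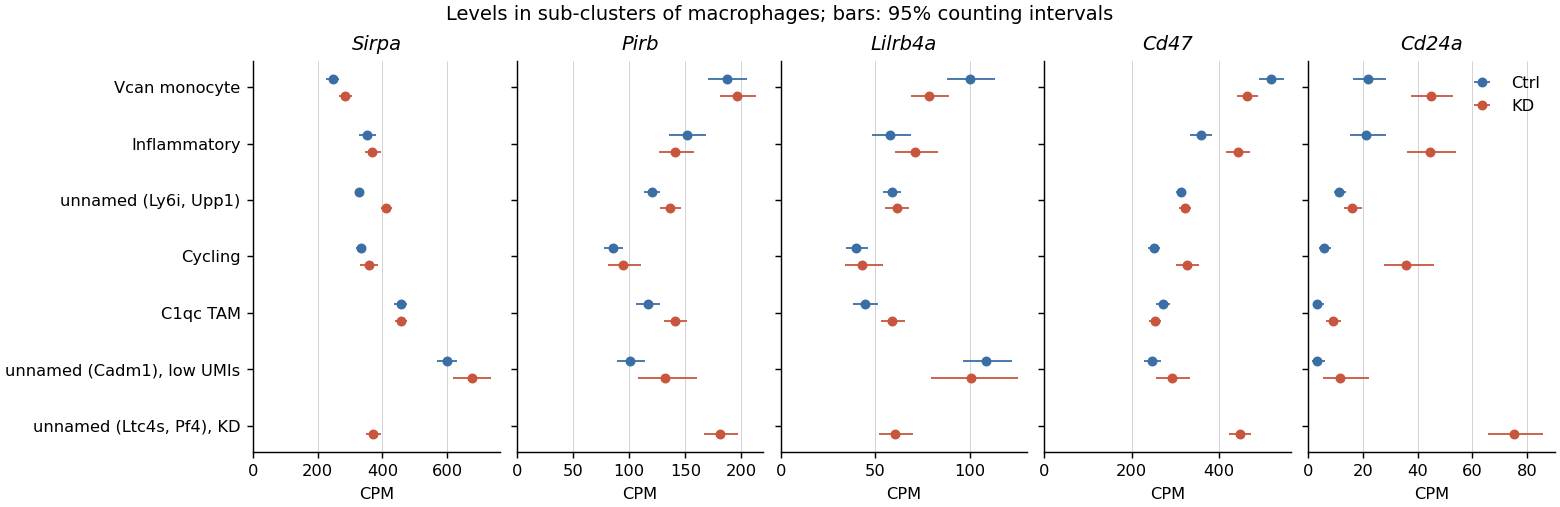
Levels of 5 genes in 7 sub-clusters of macrophages, in CPM, for the Ctrl (blue) and KD (red) libraries with 95% counting intervals; the sub-cluster led by Ltc4s and Pf4 had 6 Ctrl cells and is drawn for KD only. From Vcan+ monocyte-like to C1qc+ TAM-like cells, Sirpa is higher (246 to 456 CPM in Ctrl) and Cd47 lower (519 to 271.5 CPM in Ctrl).

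The other sub-clusters varied further. Cells led by Cadm1, whose median UMI count was 0.374 times that of the class, had the highest Sirpa levels of the sub-clusters drawn, 599 CPM in Ctrl and 677 in KD, and low Cd24a, 3.12 and 11.8 CPM. Inflammatory cells, with Il1a, Il1b and Cxcl2, had 353 and 369 CPM of Sirpa and 358 and 443 of Cd47. Cycling cells had 333 and 357 CPM of Sirpa and the lowest Pirb in both libraries among the sub-clusters drawn, 85.9 and 94.9 CPM. Cells led by Ltc4s and Pf4, of which 346 came from KD and 6 from Ctrl, had 372 CPM of Sirpa, 181 of Pirb, 447 of Cd47 and 75.2 of Cd24a in KD.

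At matched depth, most macrophages and granulocytes showed none or 1 of the receptors, and granulocytes showed 2 or more in a larger share than macrophages did. Among macrophages thinned to 1500 UMIs, 45.3% in Ctrl and 40.7% in KD had a UMI of none of Sirpa, Pirb and Lilrb4a. A UMI of 1 of them was found in 43.9% and 45.9%, of 2 in 10.0% and 12.8%, and of all 3 in 0.834% (0.571% to 1.18%) and 0.578% (0.337% to 0.924%). In granulocytes, 15.9% (13.2% to 18.9%) and 19.9% (18.2% to 21.7%) had 2, and 3.66% (2.36% to 5.40%) and 2.40% (1.78% to 3.17%) had all 3. Among T cells 96.4% and 94.4% had none. Macrophages also carried the ligand of their own receptor, since 14.1% in Ctrl (13.02% to 15.3%) and 18.1% in KD (16.8% to 19.6%) had a UMI of both Sirpa and Cd47. At this depth a cell without a UMI may still have expressed the gene.

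**Figure D3:**
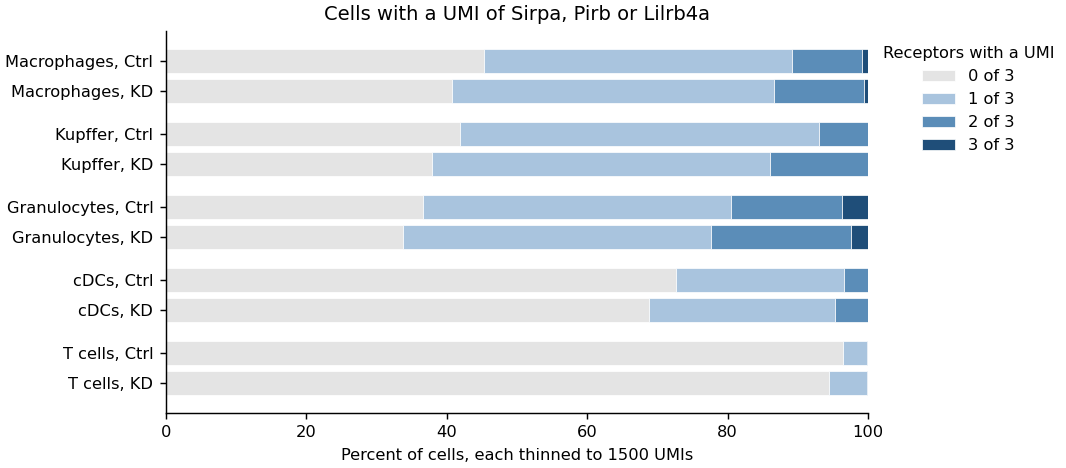
Percent of cells with a UMI of 0, 1, 2 or 3 of the receptors Sirpa, Pirb and Lilrb4a, in 5 cell classes of each library, with each cell thinned to 1500 UMIs. Macrophages and granulocytes have 1 receptor or more in most cells (45.3% of Ctrl macrophages have none), and 96.4% of Ctrl T cells have none.

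The comparison of KD with Ctrl asked whether the checkpoint genes of host cells differed when the tumor cells carried the hairpin against SLAMF3. In macrophages, 5 members had at least 200 UMIs, and 1 of them, Cd24a, was higher in KD by the 1.5-fold used throughout, while none was lower. For all 10053 genes with as many UMIs in macrophages, 4.60% were higher and 7.22% lower by this fold. Sirpa was at 369 CPM in Ctrl and 394 in KD, a log2 ratio of 0.10 (0.05 to 0.14), or 1.07-fold. Pirb was at 121 and 150 CPM, a log2 ratio of 0.32 (0.25 to 0.39), or 1.245-fold. Cd47 was at 312 and 355 CPM, a log2 ratio of 0.19 (0.14 to 0.23), or 1.14-fold. Lilrb4a was at 62.5 and 64.6 CPM, a log2 ratio of 0.05 (-0.05 to 0.15), so no difference was detectable. The counting intervals of Sirpa, Pirb and Cd47 excluded 0, but with 1 library per group the spread between pools of mice is unknown and can exceed differences of this size.

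These small differences were not shared by all macrophage sub-clusters. Of the 8 with at least 20 cells in both libraries, 7 had more Sirpa in KD and 1 had less, with 3 of the former past their counting intervals. The 1 with less carried T cell genes, and its log2 ratio was -0.12 (-0.47 to 0.22). Another of the 8 carried granulocyte genes. The largest Sirpa difference was in the sub-cluster led by Ly6i and Upp1, at 328 CPM in Ctrl and 412 in KD. By contrast, C1qc+ TAM-like cells had 456 and 457. Pirb was higher in 7 of 8 and Lilrb4a in 4 of 8. Cd47 was higher in KD in cycling cells, at 251 and 327 CPM, and lower in Vcan+ monocyte-like cells, at 519 and 464, where the log2 ratio was -0.16 (-0.27 to -0.05). The sub-clusters also made up different shares of the macrophages, with Ly6i-led cells at 34.9% in Ctrl and 24.3% in KD and Ltc4s-led cells at 0.145% and 11.2%.

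Cd24a differed most among the members in macrophages. It had 333 UMIs (12.6 CPM) in Ctrl and 849 (35.2 CPM) in KD, a log2 ratio of 1.48 (1.29 to 1.67), or 2.79-fold. In thinned cells the share of macrophages with a Cd24a UMI was 1.59% (1.22% to 2.04%) for Ctrl and 4.56% (3.83% to 5.37%) for KD, against 0.264% and 0.700% of T cells. Its level in KD exceeded that in Ctrl in 7 of 8 sub-clusters, from 3.43 to 9.06 CPM in C1qc+ TAM-like cells and from 5.85 to 35.9 in cycling cells. It was lower in the sub-cluster that carried granulocyte genes, at 186 and 130 CPM. The Ltc4s-led cells, which are not among the 8, held 222 of the 849 UMIs in KD. Without sub-clusters over 90% from 1 library, the log2 ratio in macrophages was 1.24 (1.05 to 1.44). With sub-clusters weighted equally it was 1.03. Granulocyte RNA moved with the Cd24a difference between the libraries, as the marker sums above show, and its part in this difference was not tested. At the ratio of Cd24a to these markers in granulocytes of the same library, the marker sum in macrophages corresponds to 1.93 CPM of Cd24a in Ctrl and 6.51 in KD. Among macrophages without any UMI of S100a8 or S100a9, 3325 in Ctrl and 999 in KD, Cd24a was at 10.95 and 25.55 CPM, a log2 ratio of 1.22 (0.93 to 1.51). These cells were picked by genes that themselves differed between the libraries, with S100a8 at 99.1 and 779 CPM in macrophages. They are thus unlike parts of 4128 and 3084 macrophages.

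In granulocytes, 1 of 5 members passed the fold in KD, Pirb, and none was lower by it. Over all 3951 genes tested, 17.9% were higher and 14.0% lower, and the median log2 ratio was 0.14, so this class differed between the libraries throughout. Pirb went from 150 to 301 CPM, a log2 ratio of 1.00 (0.82 to 1.18), or 2.00-fold. Among the 5 granulocyte sub-clusters with 20 cells or more per library, Pirb was higher in 4, with log2 ratios of 0.34 to 0.71, and the fifth held 4 UMIs in Ctrl. Of the other members, 3 were lower in KD past their counting intervals, Lilrb4a with a log2 ratio of -0.42 (-0.55 to -0.28), Sirpa with -0.31 (-0.46 to -0.16), and Cd24a with -0.26 (-0.38 to -0.14). Cd47 was at -0.13 (-0.25 to -0.02), but in 7 of 9 alternatives its interval held 0, so its direction is not firm. Within the 5 sub-clusters, 0 of these values were past the counting interval for Sirpa and Cd47, and 1 each for Cd24a and Lilrb4a. Lilrb4a was lower in 4 of 5, with log2 ratios of -0.65 to -0.12, and Cd24a in 3 of 5. The sub-cluster that carried macrophage genes stood apart, at 1.38 (-0.25 to 3.71) for Lilrb4a, with 3 UMIs in Ctrl and 50 in KD, and at 1.72 (-0.92 to 7.09) for Cd24a, with 1 and 21. It drew the unweighted means over the 5 sub-clusters to 0.057 for Lilrb4a and 0.27 for Cd24a. That of Pirb was 0.31. In all 9 alternatives with an interval, both genes stayed below 0 in the class. The borders between granulocyte sub-clusters also moved with the numerical library settings of the clustering, so values within them are less firm than those of the class. Different granulocytes made up the class in the libraries. Interferon-stimulated cells, with 114 CPM of Pirb in Ctrl and 144 in KD, made up 54.4% of granulocytes in Ctrl and 4.998% in KD. Cells led by Retnlg and Prok2 made up 2.44% and 28.3%. In KD these had 353.5 CPM of Pirb, 183 of Sirpa and 280.4 of Cd24a. The part of this composition in the class ratios was not tested.

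In cDCs, 1 of 6 members, Siglecg, passed the fold, against 3.35% of the 5045 genes tested higher and 3.81% lower. It had 52 UMIs (19.0 CPM) in Ctrl and 177 (33.9 CPM) in KD, a log2 ratio of 0.83 (0.38 to 1.31), and the ratio within cDC2-like cells was 0.81 (0.21 to 1.45). In thinned cells it was 0.78 (-0.21 to 1.86), so the interval held 0, and with classes assigned without clusters it was 1.49 (0.96 to 2.05). Sirpa was at 115 and 154 CPM in cDCs, a log2 ratio of 0.43 (0.24 to 0.62), with 0.34 (0.06 to 0.63) in cDC2-like cells. A sub-cluster of the class that carried macrophage genes, with 81 cells in Ctrl and 112 in KD, held 95 of 314 Sirpa UMIs in Ctrl and 243 of 807 in KD. Without this sub-cluster the log2 ratio of Sirpa was 0.45 (0.22 to 0.68). Cd24a was at 164 and 135 CPM, a log2 ratio of -0.28 (-0.45 to -0.10). The directions of Sirpa and Cd24a in cDCs did not hold when cells were given to classes without clusters, at -0.58 and 0.27, and in thinned cells the intervals of both held 0, at 0.06 (-0.36 to 0.49) for Sirpa and 0.13 (-0.31 to 0.59) for Cd24a.

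Among lymphocytes, the ligand Cd24a was higher in KD in T cells, while no difference in either ligand was detectable in B cells. B cells, with 3 members tested, had none past the fold, against 1.41% of 2979 genes higher and 2.15% lower. Siglecg in B cells had a log2 ratio of 0.19 (-0.23 to 0.64), Cd24a of -0.19 (-0.47 to 0.10) and Cd47 of -0.13 (-0.32 to 0.07). Cd47 in T cells had a log2 ratio of -0.02 (-0.07 to 0.03), so no difference was detectable. Cd24a in T cells had 81 UMIs (3.22 CPM) in Ctrl and 94 (8.36 CPM) in KD, a log2 ratio of 1.38 (0.93 to 1.82), or 2.59-fold. This was under the 200 UMIs set for calls, and the granulocyte markers that T cells carried correspond to 0.407 CPM of Cd24a in Ctrl and 2.82 in KD at the granulocytes' own ratio. NK cells had 3 and 15 Cd24a UMIs, a log2 ratio of 1.44 (-0.38 to 3.87). In T cells 1 of 3 members, Lilrb4a, passed the fold, at 10.5 and 19.1 CPM, against 3.42% of 9442 genes higher and 2.53% lower. Its log2 ratio was 0.86 (0.60 to 1.13). Sirpa, at 9.27 and 13.7 CPM, was short of the fold, with a log2 ratio of 0.56 (0.26 to 0.86). Pirb, under the 200 UMIs, was at 3.03 and 5.96 CPM, with 0.98 (0.48 to 1.47). T cells served as the background above, so these Sirpa and Pirb levels are not read as expression. Of the related genes described below, Lilrb4b, Cd300lf, Thbs1, Fgr, Tyrobp, Syk and Slamf7 were higher by this fold in T cells as well, and Fcgr4 was lower. For Lilrb4a the same markers correspond to 0.309 CPM in Ctrl and 1.92 in KD, and the part of RNA from macrophages was not tested.

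By the counting intervals, Cd47 was higher in KD in the 2 non-immune classes. Endothelial cells were at 802 CPM in Ctrl and 968 in KD, a log2 ratio of 0.27 (0.17 to 0.38), and tumor or fibroblast cells at 310 and 393, a log2 ratio of 0.34 (0.17 to 0.51). Neither passed the fold, nor did Sirpa in endothelial cells, at 0.02 (-0.21 to 0.25). For tumor or fibroblast cells, the Cd47 ratio was 0.22 to 0.49 over 7 alternatives, and in 1 of them its interval held 0. In endothelial cells 6.17% of the 4799 genes tested were higher and 6.54% lower. In the tumor or fibroblast cluster, scaling by TMM shifted all ratios by 0.11, and the lower Col1a1 in KD given above moved with this result; its part was not tested.

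**Figure D4:**
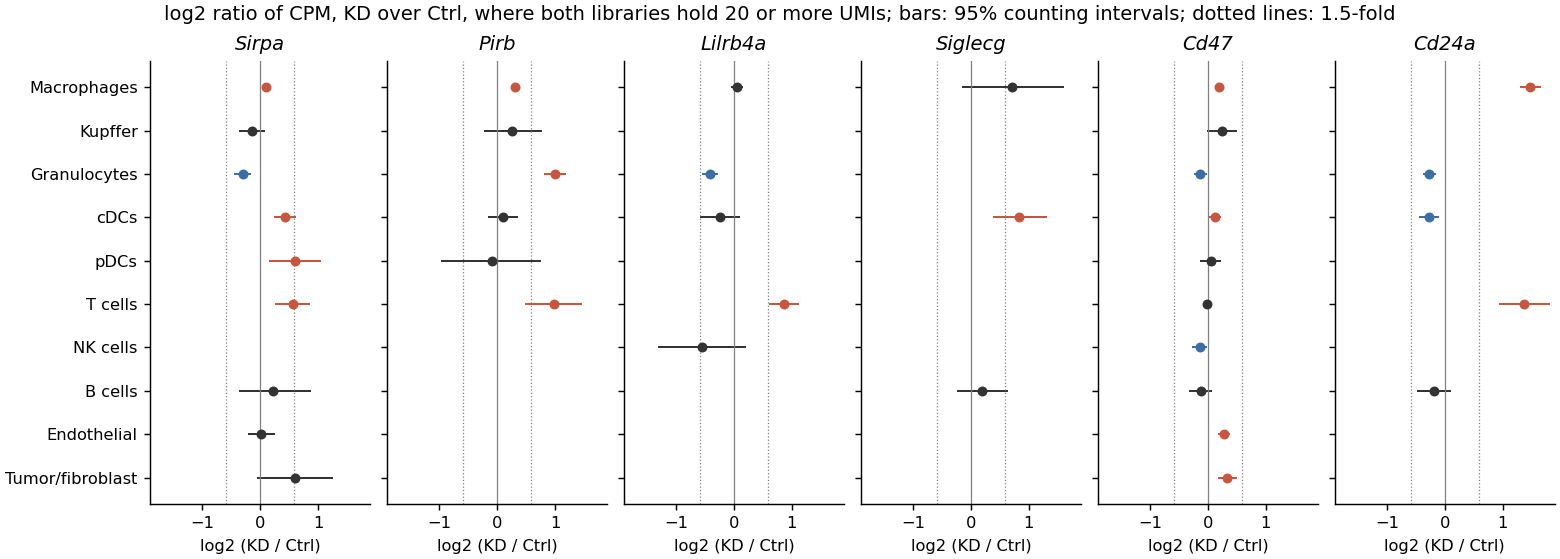
The log2 ratio of CPM in KD over Ctrl for each gene and cell class in which both libraries had at least 20 UMIs, with 95% counting intervals; dotted lines mark 1.5-fold, and red or blue points have intervals above or below 0. Pirb in granulocytes (1.00) and Cd24a in macrophages (1.48) lie to the right of the dotted line, while the Cd47 values lie within 0.34 of 0.

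The fixed lists of related genes were then examined. Of the genes listed as other inhibitory receptors of myeloid cells, 13 had enough UMIs in macrophages. In KD 3 were higher by the fold and 1 lower, against 4.60% and 7.22% of all genes. The median log2 ratio was 0.02, against -0.03 over all genes. The list held Lilrb4b, also counted among the paralogs, in whose last 120 residues the motif search found 0 matches. Cd300a, a receptor for phospholipids of dying cells, was at 104 and 192 CPM, a log2 ratio of 0.89 (0.82 to 0.96). Clec4a2, a C-type lectin receptor, was at 146 and 226 CPM, with 0.63 (0.57 to 0.69), and Siglece, a sialic acid-binding receptor of myeloid cells, at 18.8 and 28.8, with 0.61 (0.44 to 0.78). Pecam1 was lower, at 70.6 and 40.6 CPM, with -0.80 (-0.91 to -0.69). Fcgr2b, the inhibitory Fc receptor, was at 431 and 559 CPM, with 0.37 (0.34 to 0.41). Ly9, the gene targeted in the tumor cells, was at 21.9 and 19.5 CPM in macrophages, with -0.17 (-0.35 to 0.01). In granulocytes 0 of 9 of these listed genes passed the fold, against 17.9% of all genes higher and 14.0% lower. In cDCs 3 of 9 were higher and 0 lower, against 3.35% and 3.81% of all genes, Clec4a2 among them at 20.1 and 72.3 CPM. The median log2 ratio of the 9 in cDCs was -0.07.

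Among the paralogs, 2 of 7 tested in macrophages were higher and 0 lower, against 4.60% and 7.22% of all genes. Both, Pira12 and Lilra6, are activating relatives of Pirb. Pira12 was at 4.78 and 13.1 CPM, a log2 ratio of 1.45 (1.15 to 1.76), and Lilra6 at 4.89 and 9.28, with 0.92 (0.61 to 1.25). In granulocytes 1 of 5 paralogs tested was higher, Pira12, against 17.9% of all genes. It was at 21.3 and 80.1 CPM, with 1.91 (1.45 to 2.42). Pirb and the gene it shares its longest identical run with were thus both higher there in KD. Lilrb4b stood beside Lilrb4a in the same way, at 781 and 563 CPM in granulocytes, with -0.47 (-0.56 to -0.38), and at 151 and 152 CPM in macrophages.

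Of the ligands and enzymes, 1 of 6 tested in macrophages was higher and 0 lower, against 4.60% and 7.22% of all genes. Thbs1, a secreted ligand of CD47, was at 451 and 853 CPM, a log2 ratio of 0.92 (0.89 to 0.95). In granulocytes 3 of 5 were lower and 1 higher, in a class where 14.0% of all genes were lower and 17.9% higher. The MHC class I genes B2m and H2-K1, whose products are ligands of PIR-B, were at 2910 and 1215 CPM and at 1876 and 840 CPM, with log2 ratios of -1.26 and -1.16. Thbs1 was lower in granulocytes, at 554.5 and 354 CPM. Cmas, an enzyme that activates sialic acid, was higher, at 25.6 and 51.2.

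None of the 11 signaling genes passed the fold in macrophages, where 4.60% of all genes were higher and 7.22% lower. Their median log2 ratio was -0.16. Ptpn6 was at 200 and 172 CPM, with -0.22 (-0.28 to -0.16), and Ptpn11 at 31.7 and 30.3, with -0.06 (-0.21 to 0.08). In granulocytes 10 signaling genes were tested, in a class where 17.9% of all genes were higher and 14.0% lower. The kinase gene Fgr was higher there, at 246.5 and 381 CPM. Ptk2b and Inpp5d were lower, at 551 and 206 CPM and at 514 and 342. On the engulfment side, 1 of 11 genes in macrophages was higher and 2 lower, against the same 4.60% and 7.22%. Itgam, a subunit of complement receptor CR3, was at 172 and 310 CPM, with 0.85 (0.80 to 0.91). Fcgr4, an activating Fc receptor, was at 590 and 332 CPM, with -0.83 (-0.87 to -0.79), and Slamf7, which acts with CR3 in engulfment of blood cancer cells, at 178 and 105, with -0.77 (-0.84 to -0.70). Fcgr4 was lower in granulocytes too, at 402 and 146 CPM, as 1 of 8 engulfment genes tested, against 14.0% of all genes.

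**Figure D5:**
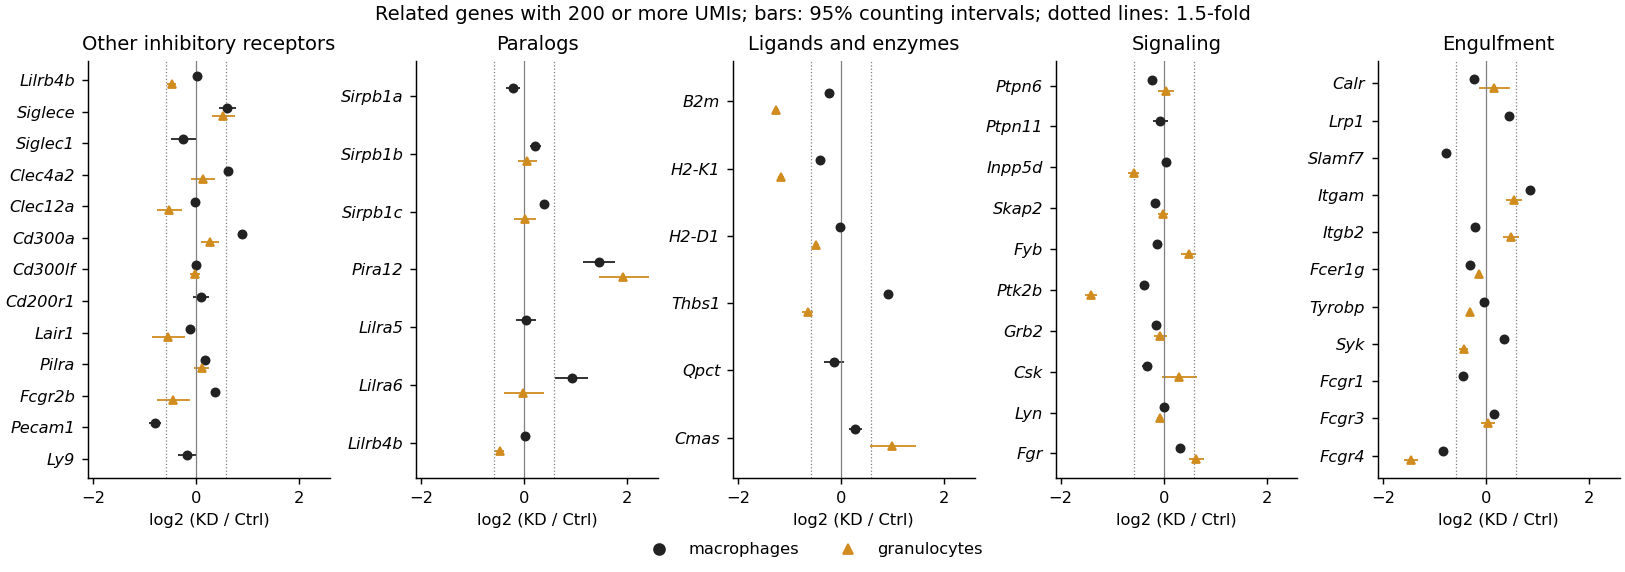
The log2 ratio of CPM in KD over Ctrl in macrophages (black circles) and granulocytes (orange triangles) for the related genes reported here with at least 200 UMIs, by list, with 95% counting intervals and dotted lines at 1.5-fold. Cd300a (0.89), Thbs1 (0.92) and Itgam (0.85) are to the right in macrophages, and B2m (-1.26) and Fcgr4 (-1.46) to the left in granulocytes.

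The genes whose levels followed each member most closely were taken from 10269 genes (predicted gene models left out) over 20 sums, 10 classes in each of the 2 libraries. Values are Pearson's r of log2(CPM + 1). The sums of a class in both libraries share the cell type, so r describes the pattern over cell types. Ifi207, Zeb2 and Gab2 were closest to Sirpa, with r of 0.94 to 0.95. Nfam1 (0.97) and Cd300a (0.97) were among the 3 closest to Pirb. For Lilrb4a the first was its paralog Lilrb4b (0.97), followed by Rhog (0.96) and Slfn2 (0.94). Siglecg was closest to H2-Oa, Bcl11a and Rab30 (0.90, 0.89 and 0.89), which include genes of B cells. The values for Cd47, 0.86 to 0.88 with Rell1, Inafm2 and Prxl2c, began at the lowest first value among the members. Cd24a was closest to Dusp16 (0.90), Trim30b (0.89) and Sp140 (0.84).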

How the data were processed

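The authors deposited raw UMI counts for each gene in each barcode, made with Cell Ranger 7.1.0 from 10x 3' libraries (GRCm39, per the submitters' processing notes). Cells with 200 to 6000 genes, up to 30000 UMIs and up to 10% mitochondrial UMIs were kept, as in the study's methods. Clusters came from Seurat 5.3.0 (R 4.3.3) with 2000 variable genes, 20 principal components and resolution 0.5, without integration; the members and related genes were left out of the variable genes. Macrophages, granulocytes and cDCs were re-clustered. A name needed 3 fixed markers, and no marker was a member. These limits were the main treatment of doublets. Counts were summed per class and library. CPM have exact Poisson, log2 ratios exact conditional binomial and shares Clopper-Pearson intervals; for 0 UMIs, 3 counts were the limit. Ratios were checked on simulated data. Genes were called at 1.5-fold with at least 200 UMIs. For shares, cells were thinned to 1500 UMIs, leaving out 293 of 4128 Ctrl and 143 of 3084 KD macrophages. Named genes were the members, related genes of 5 fixed lists that passed the fold or define a role, and the 3 genes most alike each member; 1 gene that these rules name is not reported here. The members and lists were chosen with earlier results of these data known. Alternatives were a stricter filter (500 genes, 5% mitochondrial), doublet removal (Scrublet in scanpy 1.11.5), resolution 1.0, TMM scaling (edgeR 4.0.16), thinned cells, members kept among the variable genes, and classes without clusters. No reference genome of this build was used, so no coordinates are given.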

Additional observations from a re-analysis of the deposited data

Results flagged for a closer look

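For 3 genes the KD over Ctrl difference pointed in opposite directions in macrophages and in granulocytes, which drew attention because both classes came from the same 2 libraries. The log2 ratio of Sirpa was 0.10 in macrophages and -0.31 in granulocytes. For Cd47 the values were 0.19 and -0.13, and the granulocyte interval held 0 in 7 of 9 alternatives. For Cd24a they were 1.48 and -0.26. The difference between the classes was not tested, since each group had 1 library. Within the granulocyte sub-clusters with at least 20 cells in both libraries, 0 of 5 values were past the counting interval for Sirpa and Cd47, and 1 of 5 for Cd24a.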

How the results depend on the processing

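Of 57 alternative values for the 6 results on Sirpa, Pirb, Lilrb4a and Cd47 in macrophages, Siglecg in B cells and Cd24a in granulocytes, 54 kept their direction. The log2 ratio of Sirpa was 0.15 in thinned cells, with classes from single cells and with TMM scaling alike. That of Pirb was 0.21 in thinned cells and 0.22 with classes from single cells. That of Cd47 was 0.13 with classes from single cells, 0.24 with TMM and 0.14 without sub-clusters over 90% from 1 library. Siglecg in B cells was at 0.68 with classes from single cells. With granulocyte sub-clusters weighted equally, Cd24a was at 0.27 and Lilrb4a at 0.057, above 0 through 1 sub-cluster with 1 and 3 of their UMIs in Ctrl. In cDCs, Sirpa turned to -0.58 and Cd24a to 0.27 with classes from single cells; in thinned cells Cd24a was at 0.13 and Sirpa at 0.06, both with intervals that held 0. The causes of the other changes were not tested. With at least 50 UMIs, the percent of genes past the fold was 6.55 higher in cDCs, 6.30 higher and 5.11 lower in T cells, 5.91 higher and 5.41 lower in B cells, and 9.65 higher in endothelial cells. With TMM it was 1.41 lower in B cells, and 9.63 higher and 3.94 lower in endothelial cells. The alternatives on sub-clusters were chosen after seeing the data. No paired analysis was possible because each group had 1 library, and for the same reason no library could be left out. Classes of few cells, such as Kupffer cells, limit what depth can show.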
